A study of Monodelphis domestica with 6 samples.

Results

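Serine, glycine and one-carbon enzymes were followed by RNA sequencing in a marsupial, the laboratory opossum Monodelphis domestica, from skin fibroblasts to induced pluripotent stem cells (iPSCs) made from them. The genes were taken by symbol from a list of 10 enzymes, PHGDH, PSAT1, PSPH, SHMT1, SHMT2, MTHFD1, MTHFD2, MTHFD1L, GLDC and MAT2A, and 9 of them were measured among 35665 genes. SHMT2 was not analysed here.

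Cells make serine from a glycolysis intermediate in a short pathway catalysed by PHGDH, PSAT1 and PSPH. Serine hydroxymethyltransferase (SHMT1 in the cytosol and SHMT2 in mitochondria) then splits serine into glycine and a one-carbon unit carried by folate. GLDC, the decarboxylase of the mitochondrial glycine cleavage system, releases a further one-carbon unit from glycine. MTHFD1 in the cytosol and MTHFD2 with MTHFD1L in mitochondria interconvert the folate-bound units between formate and the forms used for purines and thymidylate. MAT2A makes S-adenosylmethionine, the methyl donor, from methionine. The pathway is known for supplying nucleotide and methyl-group synthesis in dividing cells, and several of its genes are known to be induced by ATF4, the transcription factor of the amino acid response. Mouse embryonic stem cells are known to use threonine breakdown together with glycine cleavage for one-carbon supply.

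There were 2 neonatal skin fibroblast (neoSF) libraries and 4 monoiPSC libraries, all wild type. The neoSF cultures came from 10-day-old female pups of the inbred strains FD2M1 and LSD1, 1 library per strain, and were grown in IMDM with fetal bovine serum, insulin, transferrin and selenite. The monoiPSC libraries came from an FD2M1 line and an LSD1 line, each at passage 15 and passage 25. The sources used here speak both of lines and of clones, and do not settle whether the libraries of a strain come from the same clone. These lines were derived from the neoSFs with episomal plasmids encoding human OCT4, SOX2, NANOG, KLF4, LIN28 and cMYC, and were grown without feeder cells in DMEM/F12 with N-2, B-27, non-essential amino acids, LIF, bFGF and a ROCK inhibitor. Culture medium, sequencing platform and read type (single-end for neoSFs, paired-end for monoiPSCs) all change together with the cell type, and their effects cannot be told apart from it.

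The total count per library was 14278794 and 16982978 in neoSFs and 28684754 to 35564261 in monoiPSCs. The cell labels were checked against marker genes. All 7 fibroblast markers measured were lower in monoiPSCs, with a summed normalized read count (NRC) of 1462000 and 1627000 in neoSFs and 2115 to 7438 in monoiPSCs. All 8 pluripotency markers were higher, with a summed NRC of 144.5 and 224.8 in neoSFs and 10210 to 14260 in monoiPSCs, and 5 of them had at most 3 counts in each neoSF library. Of the other cell types, the 2 keratinocyte markers measured summed to an NRC of 53.65 and 151.5 in neoSFs and 0 to 6.735 in monoiPSCs, mostly DSG3, with TP63 at 0 in monoiPSCs. The 4 blood markers summed to 103 and 115 in neoSFs and 39.22 to 46.91 in monoiPSCs, with CSF1R DE and lower and PTPRC at no more than 8 counts in any library. CD68 was not DE. SPI1 was too low to be tested, at an NRC of 4.88 and 1.58 in neoSFs and a higher 6.29 to 10.82 in monoiPSCs. The 4 endothelial markers summed to 51.48 and 216.6 in neoSFs and 66.79 to 139.9 in monoiPSCs, mostly KDR, which was not DE, with CDH5 at 0 in neoSFs. PECAM1 was also too low to be tested, at 1.95 and 0 in neoSFs and a higher 9.27 to 16.3 in monoiPSCs, while the groups overlapped for TEK. The 4 muscle markers summed to 334.5 and 1180 in neoSFs and 1341 to 10350 in monoiPSCs, where MYOG was DE and higher and MYOD1 and DES were not DE. The 3 melanocyte markers summed to 229.1 and 388.3 in neoSFs and 4596 to 15550 in monoiPSCs, where DCT was DE and higher, MITF was not DE and TYRP1 had at most 30 counts. The 3 neural markers summed to 118 and 161.6 in neoSFs and 1601 to 4329 in monoiPSCs, where TUBB3 and ELAVL3 were DE and higher. The part of these markers in the changes described here was not tested. In such bulk samples, more cells of a type and more RNA per cell cannot be told apart.

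NRC is the deposited DESeq-normalized value returned to the linear scale. It is compared here between libraries and not between genes, because transcript lengths were not used. Differential expression (DE) was tested with the quasi-likelihood method of edgeR after TMM scaling, and needed a 2-fold change or more with p, adjusted by Benjamini-Hochberg, not above 0.05. All 9 genes passed the expression filter. PSPH, SHMT1, MTHFD1 and GLDC were DE and higher in monoiPSCs, 0 were DE and lower, and PHGDH, PSAT1, MTHFD2, MTHFD1L and MAT2A were not DE. The DE share of 44.4% is close to that of all 13072 tested genes, of which 45.9% were DE, 24.3% higher and 21.6% lower. The groups did not overlap in NRC for 4 of the 9 genes, against 73.2% of tested genes. The median log2 fold change was 0.98 over the 9 genes and 0.08 over all tested genes.

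**Figure D1:**
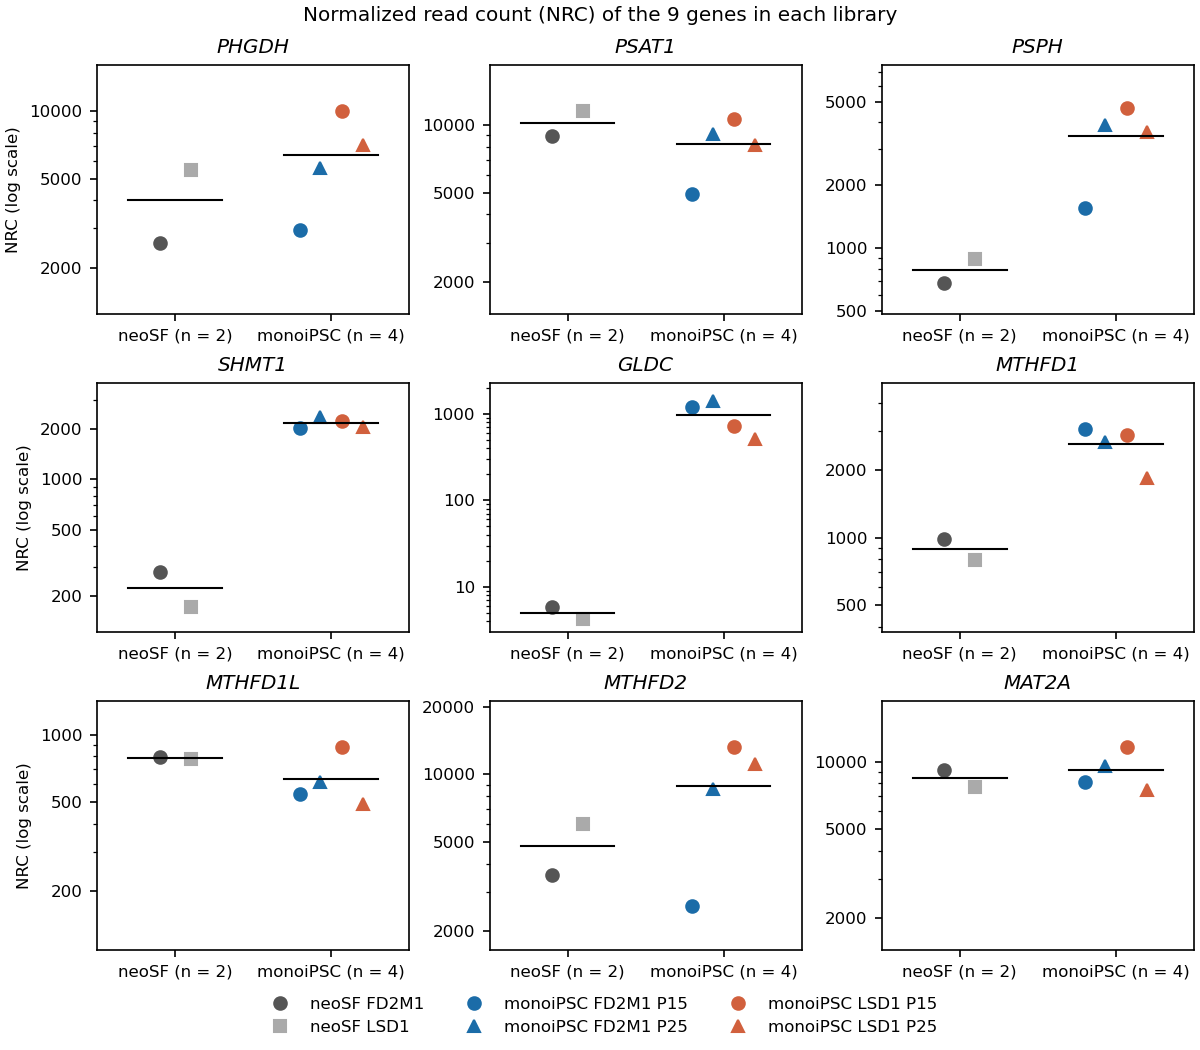
NRC (log scale) of the 9 genes in each of the 2 neoSF and 4 monoiPSC libraries; points are libraries and bars are arithmetic group means. For PSPH, SHMT1, GLDC and MTHFD1 every monoiPSC library lies above both neoSF libraries, and the groups overlap for the other 5 genes.

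The serine synthesis genes did not move together between the cell types. PHGDH (gene 100012806, chromosome 2 of MonDom5) encodes phosphoglycerate dehydrogenase, the first enzyme of the pathway. Its NRC was 2574 in the FD2M1 and 5485 in the LSD1 neoSFs. Among monoiPSCs, the values at passages 15 and 25 were 2951 and 5590.45 in the FD2M1 line and 9999 and 7044 in the LSD1 line. The lowest monoiPSC library lay between the neoSF libraries and the other 3 lay above both. The log2 fold change of 0.76 had a 95% interval of -0.41 to 1.93 (standard error 0.50, adjusted p = 0.218, edgeR).

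PSAT1 (gene 100012719, chromosome 6), the aminotransferase of the pathway's next step, was abundant in both cell types. Its NRC was 8969 and 11555 in the FD2M1 and LSD1 neoSFs. At passage 15 the FD2M1 line had 4948 and the LSD1 line 10625, and at passage 25 they had 9122 and 8145. Its log2 fold change of -0.23 had a 95% interval of -0.92 to 0.46 (adjusted p = 0.522, edgeR), and the sign changed with the scaling, to 0.30 with library totals alone. PSPH (gene 100010308, chromosome 2), the phosphatase that releases serine, was the one gene of this trio to be DE. Its NRC was 681.1 and 893.0 in the FD2M1 and LSD1 neoSFs. The FD2M1 line had 1563 at passage 15 and 3889 at passage 25, and the LSD1 line had 4688 and 3584. All 4 monoiPSC libraries lay above both neoSF libraries, with a 4.65-fold change (95% interval 2.28 to 9.47, log2 fold change 2.22, standard error 0.44, adjusted p = 0.00353, edgeR).

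The largest changes of the 9 genes were in the enzymes that take one-carbon units from serine and glycine. SHMT1 (gene 100029356, chromosome 6), the cytosolic serine hydroxymethyltransferase, had an NRC of 277.8 and 171.4 in the FD2M1 and LSD1 neoSFs. Among monoiPSCs, the values at passages 15 and 25 were 2022 and 2347 in the FD2M1 line and 2222 and 2072 in the LSD1 line. The monoiPSC libraries were nearly alike, with a highest-to-lowest ratio of 1.16, and SHMT1 was 10.4-fold higher than in neoSFs (95% interval 7.05 to 15.3, log2 fold change 3.37, standard error 0.24, adjusted p = 4.04e-05, edgeR).

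GLDC (gene 100018555, chromosome 6) was at the detection floor in neoSFs, with 3 counts in each library after rounding. Its NRC was 5.85 and 4.22 in the FD2M1 and LSD1 neoSFs. At passage 15 the FD2M1 line had 1192 and the LSD1 line 720.9, and at passage 25 they had 1399.85 and 514.6. Over the groups, 6724 counts in monoiPSCs against 6 in neoSFs gave a ratio of 189.7 on TMM-scaled counts. Its exact 95% interval of 87.1 to 517 reflects the counting of reads alone. Copies made by PCR, or reads of a pair counted separately, would make that interval too narrow. The edgeR estimate was a 191-fold change, with a wider 95% interval of 63.0 to 580. The adjusted p was 0.000109 (edgeR), and the fitted log2 fold change stayed between 7.34 and 8.09 over 12 alternative settings. The other subunits of the glycine cleavage system that were measured, AMT and DLD, moved the same way. AMT, its aminomethyltransferase, rose from an NRC of 68.0 and 21.3 in neoSFs to 521.5 to 613.9 in monoiPSCs (log2 fold change 3.83, standard error 0.46, adjusted p = 0.000359, edgeR). DLD, the lipoamide dehydrogenase shared with pyruvate dehydrogenase, rose from 1246 and 1154 to between 2218 and 2396 (log2 fold change 1.04, standard error 0.13, adjusted p = 0.000457, edgeR), close to the 2-fold threshold. The fourth subunit, GCSH, was not analysed here.

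Of the folate-interconverting enzymes among the 9 genes, cytosolic MTHFD1 was DE and mitochondrial MTHFD2 and MTHFD1L were not, while MTHFD2L, a further mitochondrial enzyme that is not one of the 9, was DE and higher. MTHFD1 (gene 100027684, chromosome 1), the trifunctional cytosolic enzyme, had an NRC of 981.6 and 799.1 in the FD2M1 and LSD1 neoSFs. The FD2M1 line had 3043 at passage 15 and 2676 at passage 25, and the LSD1 line had 2881 and 1845. It was 3.14-fold higher (95% interval 2.12 to 4.65, log2 fold change 1.65, standard error 0.24, adjusted p = 0.000909, edgeR), without overlap between the groups.

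MTHFD1L (gene 100032106, chromosome 2), the mitochondrial formate-producing relative of MTHFD1, had an NRC of 796.4 and 777.0 in the FD2M1 and LSD1 neoSFs. Among monoiPSCs, the values at passages 15 and 25 were 544.8 and 616.1 in the FD2M1 line and 877.3 and 491.0 in the LSD1 line. Its log2 fold change of -0.22 (95% interval -0.80 to 0.36, adjusted p = 0.467, edgeR) became 0.31 with library totals alone. MTHFD2 (gene 100024210, chromosome 1), the mitochondrial dehydrogenase and cyclohydrolase, had an NRC of 3567 and 6015 in the FD2M1 and LSD1 neoSFs. At passage 15 the FD2M1 line had 2586 and the LSD1 line 13211, and at passage 25 they had 8609.7 and 11161. The FD2M1 library at passage 15 lay below both neoSF libraries and the other 3 lay above both. The log2 fold change was 0.98 (95% interval -0.40 to 2.37, standard error 0.59, adjusted p = 0.182, edgeR). This call rests on 1 library, since without FD2M1 at passage 15 MTHFD2 was DE, with a log2 fold change of 1.29 (adjusted p = 0.0119, edgeR). In that setting 5 of the 9 genes were DE and higher, and of all 13072 tested genes 3120 were DE and higher and 2800 DE and lower.

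MAT2A (gene 100018803, chromosome 1), the catalytic subunit of methionine adenosyltransferase, had an NRC of 9173 and 7717 in the FD2M1 and LSD1 neoSFs. The FD2M1 line had 8103 at passage 15 and 9535 at passage 25, and the LSD1 line had 11581 and 7437. The groups overlapped, and the log2 fold change of 0.21 had a 95% interval of -0.29 to 0.72 (adjusted p = 0.410, edgeR). With TMM scaling and all libraries, this interval excludes a 2-fold change in either direction. The same holds for MTHFD1L and, at -0.92 to 0.46, for PSAT1. For PHGDH and MTHFD2 the interval does not exclude it. Intervals under the alternative settings are not given here, and with library totals alone the log2 fold change of MAT2A was 0.74.

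**Figure D2:**
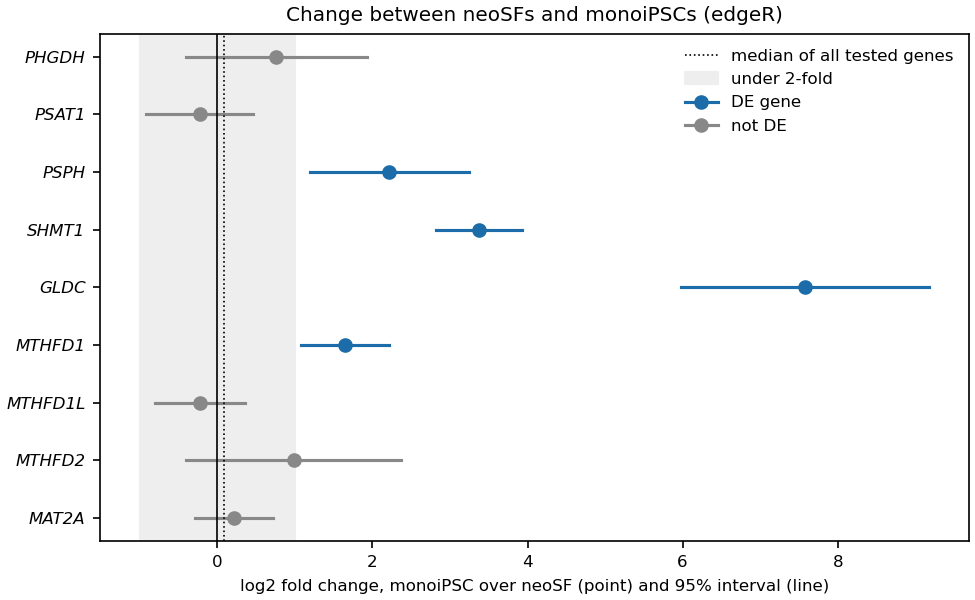
Log2 fold change of monoiPSCs over neoSFs for the 9 genes, with points for edgeR estimates and lines for 95% intervals; the shaded band marks changes under 2-fold and the dotted line the median of all tested genes, 0.08. The intervals of PSPH, SHMT1, GLDC and MTHFD1 lie above the band, from 1.19, 2.82, 5.98 and 1.08 on, while the other 5 intervals cross 0.

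The balance of mitochondrial to cytosolic transcripts was measured as a ratio of read counts within a library, which does not depend on how libraries are scaled. Its absolute size depends on transcript lengths, so only the groups are compared. The MTHFD1L to MTHFD1 ratio was 0.811 and 0.972 in the FD2M1 and LSD1 neoSFs. Among monoiPSCs, the values at passages 15 and 25 were 0.179 and 0.230 in the FD2M1 line and 0.304 and 0.266 in the LSD1 line. All 4 monoiPSC libraries lay below both neoSF libraries. On the log2 scale the neoSF mean was -0.17 ± 0.18 (SD, n = 2) and the monoiPSC mean -2.06 ± 0.33 (SD, n = 4), so that they differed by -1.89 (exact two-sided permutation test, p = 0.0667, the smallest that 15 splits allow, 0.133 adjusted over 2 ratios). The MTHFD2 to MTHFD1 ratio was 3.63 and 7.53 in neoSFs. At passage 15 the FD2M1 line had 0.850 and the LSD1 line 4.59, and at passage 25 they had 3.22 and 6.05. The groups overlapped, with a difference of -0.83 on the log2 scale (exact two-sided permutation test, p = 0.533, 0.533 adjusted).

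**Figure D3:**
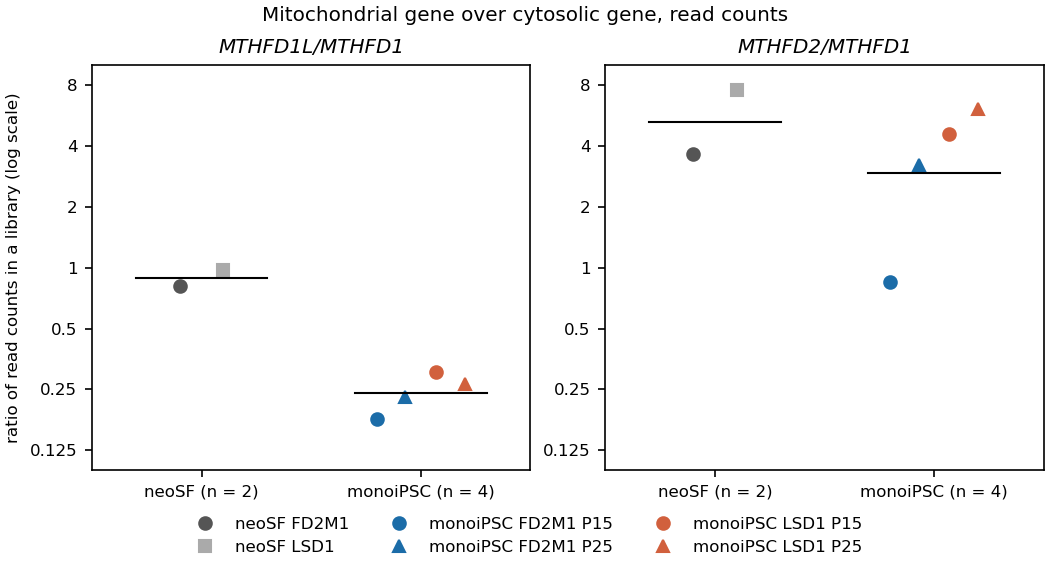
Ratio of read counts of a mitochondrial gene to cytosolic MTHFD1 within each library (log scale); points are libraries and bars are geometric group means. The MTHFD1L to MTHFD1 ratio is 0.811 and 0.972 in neoSFs and 0.179 to 0.304 in monoiPSCs, and the MTHFD2 to MTHFD1 ratios of the groups overlap.

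The monoiPSC libraries differed from each other in 8 of the 9 genes by more than the median gene, and PHGDH, PSAT1, PSPH and MTHFD2 shared the same lowest and highest library. For each of these 4 genes FD2M1 at passage 15 was the lowest and LSD1 at passage 15 the highest of the 4 libraries. FD2M1 at passage 15 lay below the mean of the other 3 libraries by 2.07 for MTHFD2, 1.37 for PSPH, 1.31 for PHGDH and 0.90 for PSAT1, as differences in log2 NRC. The ratio of the highest to the lowest library was 5.11 for MTHFD2, 3.39 for PHGDH, 3.00 for PSPH and 2.15 for PSAT1, against a median of 1.47 over the 12252 genes expressed in all 4 monoiPSC libraries. The range of MTHFD2 was wider than that of 98.4% of these genes, and that of SHMT1 wider than that of 8.09%. GLDC had a ratio of 2.72, wider than 91.9% of genes and than PSAT1 at 83.9%, but with FD2M1 at passage 25 highest and LSD1 at passage 25 lowest. MTHFD1L, MTHFD1 and MAT2A had ratios of 1.79, 1.65 and 1.56. FD2M1 at passage 15 was also lowest for SHMT1, but its 4 libraries spanned 0.21 on the log2 scale. It was the lowest library for 28.6% of the expressed genes, and LSD1 at passage 15 the highest for 22.5%. These 4 genes were set apart after their values were seen, so no test is given.

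The genes of a list of ATF4 and amino acid response targets varied in a similar way. The list was written with earlier results of these data known, and its link to PHGDH, PSAT1, PSPH and MTHFD2 was not tested. FD2M1 at passage 15 was the lowest monoiPSC library for 18 of the 18 genes measured, against 28.6% of expressed genes. SLC7A11 was lowest there only narrowly, at an NRC of 30.39 against 30.48 in LSD1 at passage 25. LSD1 at passage 15 was the highest library for 13 of the 18, against 22.5% of expressed genes. The median difference between FD2M1 at passage 15 and the mean of the other 3 libraries was -0.80 in log2 NRC over the list, with values from -2.58 to -0.32, and 0.01 over all expressed genes. ATF4 itself varied less, with an NRC of 6610.04 at passage 15 and 8098 at passage 25 in the FD2M1 line, and 8704 and 7941 in the LSD1 line. ALDH1L2, a mitochondrial folate dehydrogenase outside that list, had 866.4 and 2095 for FD2M1 and 4471 and 3162 for LSD1. In neoSFs, too, the FD2M1 library was lower than the LSD1 library in 17 of the 18 list genes and in PHGDH, PSAT1, PSPH and MTHFD2, against 46.7% of the genes expressed in monoiPSCs. The exception in the list was ATF4 itself, with an NRC of 11779 in the FD2M1 and 11208 in the LSD1 neoSFs. The other 5 of the 9 genes were lower in the LSD1 neoSFs. Of these, GLDC had 3 counts in each neoSF library, and MTHFD1L differed by only -0.04 in log2 NRC.

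Markers of other cell types in FD2M1 at passage 15 were as follows. The 7 fibroblast markers summed to an NRC of 7438, the highest of the monoiPSC libraries, with 2115 to 5389 in the others. The 8 pluripotency markers summed to 12560, within the range of the others, and did not move together. POU5F1, SOX2, NANOG and PODXL, 4 of the 8, were lowest in this library, with NANOG at 279.9 against 857.6 to 1456. POU5F1 was lowest only narrowly, at 218.5 against 223.9 to 299.8. SALL4, at 3034, and PRDM14, at 1456, were highest in this library, and LIN28A and DNMT3B lay within the range of the others. The 6 proliferation markers, at 44720, and the 4 muscle markers, at 2202, lay within the range of the other libraries. The part of any of these in the values of PHGDH, PSAT1, PSPH and MTHFD2 was not tested.

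**Figure D4:**
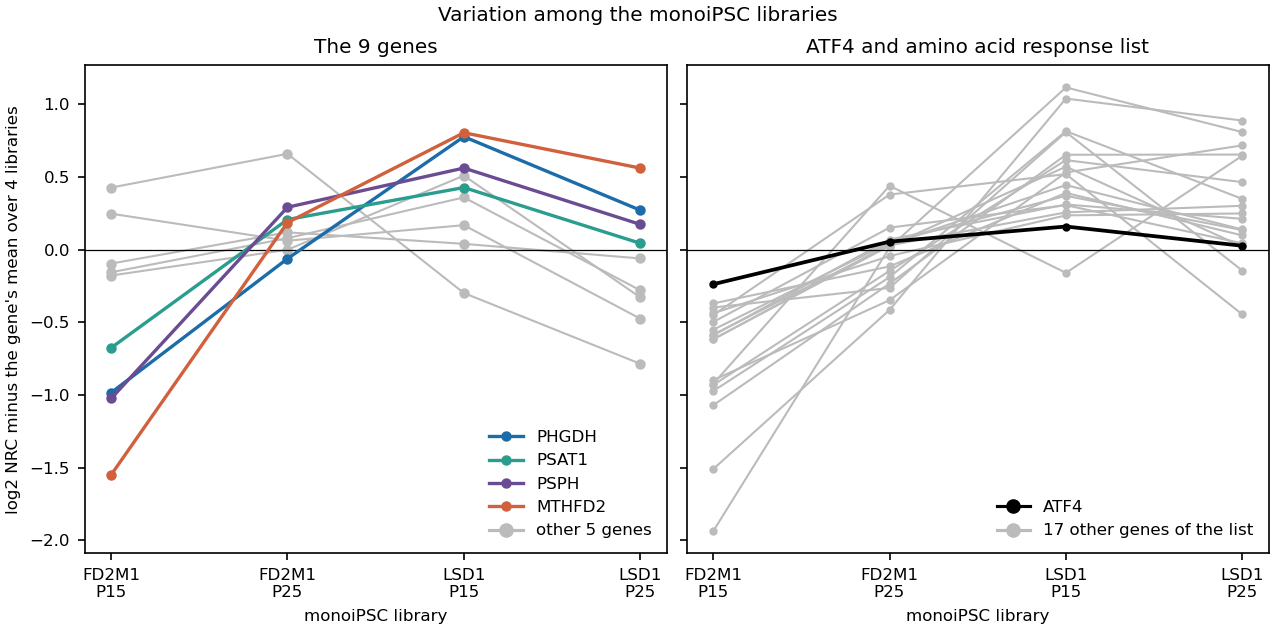
Log2 NRC of each gene minus its mean over the 4 monoiPSC libraries, for the 9 genes (left) and for the 18 genes of the ATF4 and amino acid response list (right); each line joins the values of 1 gene. FD2M1 at passage 15 is the lowest library for PHGDH, PSAT1, PSPH and MTHFD2 and for all 18 list genes.

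Between the lines, with passage as a covariate, 0 of the 9 genes passed an adjusted p of 0.05 with edgeR, which called 0% of 12252 genes, and 3 of the 9 had an unadjusted p under 0.05, as did 1736 of all genes. DESeq2 called 3 of the 9 on the same libraries, and 2.5% of the genes to which it gave an adjusted p. These 3 genes were the same in both tools. PHGDH and MTHFD2 were higher in the LSD1 line, by 1.05 (standard error 0.34) and 1.37 (standard error 0.46) on the log2 scale, with adjusted p = 0.271 and 0.284 in edgeR and 0.0172 and 0.00432 in DESeq2. GLDC was lower in the LSD1 line by a log2 fold change of -1.08 ± 0.23 (SE, with an adjusted p of 0.178 in edgeR and 0.00726 in DESeq2), and both FD2M1 libraries lay above both LSD1 libraries. The difference in PHGDH and MTHFD2 was larger at passage 15 than at passage 25.

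Between passages, with line as a covariate, 0 of the 9 genes passed an adjusted p of 0.05 with edgeR or DESeq2, which called 0% and 1.22% of the genes tested. At an unadjusted p under 0.05 there were 0 of the 9 with edgeR, against 1145 of 12252 genes, and 1 with DESeq2, against 827 of 11776. The widest estimate was that of MTHFD2, 0.73 higher at passage 25 on the log2 scale, with a 95% interval of -0.38 to 1.83. For SHMT1 the passages differed by 0.04, with an interval of -0.35 to 0.44.

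The change from neoSF to monoiPSC was also set side by side in the strains, each monoiPSC library against the neoSF library of its own strain. PHGDH, PSPH, SHMT1, MTHFD1 and GLDC were higher in all 4 comparisons. Both comparisons of a strain share 1 neoSF library, so they are not independent. The share of all tested genes that were higher in all 4 is not reported here. MTHFD2 was higher in 3, with the exception of FD2M1 at passage 15, which was lower by -0.46 in log2 NRC. A test of the difference in change between strains called 0 of the 9 genes and 0.0841% of the tested genes at an adjusted p of 0.05 (edgeR). At an unadjusted p under 0.05 it also called none of the 9, and the lowest was that of SHMT1, with a change larger by 0.66 in LSD1 (standard error 0.30, adjusted p = 0.623, edgeR). With 1 neoSF library per strain this test takes its error from the passages alone.

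Other genes of the pathway were counted from lists. Of all tested genes, 24.3% were DE and higher and 21.6% DE and lower, with a median log2 fold change of 0.08. In the folate list, 8 of 16 tested genes were DE and higher, 3 were DE and lower and 5 were not DE. The median log2 fold change of this list was 1.00. Over 12 alternative settings, 7 to 10 of its genes were higher and 2 to 3 lower, with a median from 0.89 to 1.52. TYMS, which makes thymidylate, rose from an NRC of 183 ± 27.5 (SD, n = 2) in neoSFs to 1816 ± 266 (SD, n = 4) in monoiPSCs. ALDH1L1, the cytosolic formyltetrahydrofolate dehydrogenase, rose from 86.7 ± 39.8 (SD, n = 2) to 716 ± 83.6 (SD, n = 4), and its mitochondrial counterpart ALDH1L2, at a log2 fold change of -0.56 ± 0.55 (SE, with an adjusted p of 0.408, edgeR), was not DE. MTHFD2L, a mitochondrial relative of MTHFD2, rose from 58.7 ± 1.69 (SD, n = 2) to 229.8 ± 45.4 (SD, n = 4). The genes that fell were MTHFSD, the mitochondrial folate carrier SLC25A32 and the folate transporter SLC46A1. The 6 proliferation markers (MKI67, TOP2A, PCNA, MCM2, CCNB1 and CDK1) were all DE and higher beside them, at a summed NRC of 3431 and 4550 in neoSFs and 35170 to 49190 in monoiPSCs, and their part in the change of the folate and serine genes was not tested.

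In the list of serine and glycine use and transport, 4 of 19 tested genes were DE and higher and 5 were DE and lower. These shares are close to those of all tested genes, 24.3% and 21.6%. The counts became 6 and 4 with library totals alone and 3 and 6 with RLE scaling, DESeq2 or limma. The median log2 fold change of -0.30 became 0.23 with library totals alone. Besides AMT and DLD, the higher genes were SERINC2, with a log2 fold change of 4.46 ± 0.51 (SE, with an adjusted p of 0.000283, edgeR), and SERINC5. PTDSS2, a phosphatidylserine synthase, had an NRC of 417.7 and 477.8 in neoSFs and 1.96 to 6.31 in monoiPSCs, and so fell by 6.53 on the log2 scale (standard error 0.43, adjusted p = 3.18e-05, edgeR). The other genes that fell were SERINC1, SERINC3, the amino acid transporter SLC38A2 and SLC25A38, a mitochondrial glycine carrier.

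In the methionine cycle list, 1 of 15 tested genes was DE and higher and 3 were DE and lower. The shares of all tested genes were 24.3% and 21.6%. The counts of this list became 5 and 1 with library totals alone and 1 and 5 with RLE scaling, DESeq2 or limma. AHCY, which clears S-adenosylhomocysteine, was the gene that rose, from an NRC of 1068 ± 276 (SD, n = 2) to 6524 ± 400.2 (SD, n = 4). MAT2B, the regulatory subunit that binds MAT2A, fell from 2624 ± 39.3 (SD, n = 2) to 982 ± 99.7 (SD, n = 4), while MAT2A was not DE. MAT1A, the liver-type catalytic subunit, had a log2 fold change of -1.05 ± 0.41 (SE, with an adjusted p of 0.0557, edgeR) and was not DE. SMS, spermine synthase, and MMACHC also fell. In the list of transsulfuration and glutathione, 2 of 9 tested genes were DE and higher, or 4 with library totals alone, and 0 were DE and lower. The 2 genes were the transsulfuration enzymes themselves. CBS, which joins homocysteine to serine, rose from 292 ± 63.9 (SD, n = 2) to 3366 ± 648 (SD, n = 4), and CTH, which releases cysteine, from 373 ± 171 (SD, n = 2) to 1062 ± 137 (SD, n = 4).

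In the ATF4 and amino acid response list, 2 of 18 tested genes were DE and higher and 4 were DE and lower. The shares of all tested genes were 24.3% and 21.6%. The higher genes were ATF3 and the glycyl-tRNA synthetase GARS. ATF3 was close to the threshold (adjusted p = 0.0474, edgeR) and its groups overlapped in NRC, while those of GARS did not. The lower genes were SESN2, NUPR1, CEBPB and the tryptophanyl-tRNA synthetase WARS. ATF4 itself was lower in all 4 monoiPSC libraries, at 7838 ± 883 (SD, n = 4) against 11494 ± 403 (SD, n = 2), and its log2 fold change of -0.46 (adjusted p = 0.0382, edgeR) was under the 2-fold threshold. The median of the list was a log2 fold change of -0.34, and 0.18 with library totals alone. Over 12 alternative settings, 1 to 4 of its genes were DE and higher and 3 to 5 were DE and lower, with 4 of each without FD2M1 at passage 15, and the median was 0.05 without the LSD1 neoSFs.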

How the data were processed

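Of the 6 libraries, 2 were neoSFs and 4 monoiPSCs. The authors aligned reads to MonDom5 and RefSeq transcripts with StrandNGS, removed low-quality, poorly mapped and secondary multiply mapped reads, and counted the rest per gene. They deposited estimated counts, of which 85.3% of values above 0 were not whole (tolerance 0.001), and log2 values after DESeq normalization, with values below 1 read set to 0. Whether the reads of a pair were counted separately is not given in the sources used here. Counts were rounded. A gene was tested if every library of at least 1 group reached an NRC of 20, using edgeR 4.0.16 (R 4.3.3). DESeq2 1.42.0 and limma 3.58.1 were alternatives. A standard error is the log2 fold change divided by the square root of F. The scripts were tested on simulated data.

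The monoiPSC replicates are 2 passages per strain, which may share a clone, so p-values measure only the spread between these libraries. Strain links each line to its neoSFs, and deviations of same-strain libraries correlated at 0.0402 across genes. The genes and lists were chosen with earlier results of these data known. Named list genes are the direct partners of the 9 genes and the 3 largest DE changes per list at a mean NRC of at least 100, and genes in counts were named afterwards. SHMT2 was not analysed here, so the planned SHMT2 to SHMT1 ratio was not computed. Some list genes named by this rule are not reported here.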

Additional observations from a re-analysis of the deposited data

How the results depend on the processing

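PSPH, SHMT1, MTHFD1 and GLDC remained DE and higher under all 12 alternatives (RLE scaling, library totals alone, DESeq2, limma on the deposited log2 values, no expression filter, strain as a replicate block, and leaving out each library). The replicate block changed the call of none of the 9 genes, and PHGDH had an adjusted p of 0.0556 under it (edgeR). Library totals alone moved the median log2 fold change of all tested genes from 0.08 to 0.61, raised the number of DE and higher genes from 3176 to 4786, with 1931 lower (71.2% against 52.9% higher), and reversed PSAT1 to 0.30 and MTHFD1L to 0.31. MAT2A then had an adjusted p of 0.0222 (edgeR) at a log2 fold change of 0.74, under 2-fold. DESeq2 called 3 of the 9 genes between lines, where edgeR called 0; the cause was not tested. Without 1 library at a time, the log2 fold change of MTHFD2 ranged from 0.65 to 1.42 and that of PHGDH from 0.31 to 1.42, lowest in both without the FD2M1 neoSFs, and with 1 neoSF library left that library is assumed to vary like the monoiPSCs. The log2 MTHFD1L to MTHFD1 difference ranged from -2.02 to -1.74 and that of MTHFD2 to MTHFD1 from -1.35 to -0.23, the latter without FD2M1 at passage 15. At 3 counts per neoSF library, depth limits GLDC to a ratio with a wide interval.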

Other observations

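WARS, which is known to be induced by interferon as well as by the amino acid response, had an NRC of 20902 in the FD2M1 and 83055 in the LSD1 neoSFs against 2137 to 4932 in the 4 monoiPSC libraries. The difference between the neoSF libraries has no replicate check, since each strain has 1 neoSF library. Among amino acid response genes chosen after their values were seen, TRIB3 had 2498 in the FD2M1 and 10882.5 in the LSD1 neoSFs, and ATF5 had 1223 and 4209.82. The FD2M1 line had an ATF5 level of 1523 at passage 15 and 5893 at passage 25, and the LSD1 line had 12634.5 and 10213.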
